A study of Mus musculus with 62 samples.

Results

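Sedentary mice given both nicotinamide riboside and pterostilbene were compared with sedentary mice given neither, across all expressed genes of the quadriceps. The libraries were taken by their titles: 8 hold muscle of mice with both supplements and no wheel, and 8 hold muscle of mice with no supplement and no wheel, 16 of the 62 libraries of the series. The series crossed 3 factors in full, voluntary running on a wheel and the supplements nicotinamide riboside (NR) and pterostilbene (PT), in 8 groups of 7 or 8 male mice. The other groups used here are sedentary mice with NR alone (8) or PT alone (8), and running mice with both (8) or neither (7). By the series title NR was given intravenously. The labels of the mice say only which supplements were given, and the sources used here name no strain, age, dose or duration. Each library is labelled as 1 mouse, and nothing in the labels describes a genetic change.

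NR is a form of vitamin B3 that NR kinases phosphorylate to nicotinamide mononucleotide, which is then made into NAD. Nmrk2 encodes the NR kinase that is most restricted to skeletal and cardiac muscle, and Nmrk1 the kinase found in most tissues, while Nampt makes nicotinamide mononucleotide from nicotinamide. PT is a plant stilbenoid, a dimethylated relative of resveratrol. Interferons, made by immune and infected cells, switch on a large set of antiviral and antigen presentation genes through STAT and IRF transcription factors, and muscle fibres, endothelial cells and immune cells can all respond. In bulk muscle, fewer cells of a type and less RNA per cell cannot be told apart.

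Each of the 8 termination days held 1 mouse of each of the 2 groups, killed in the same session, so values are also compared within days. Over all genes tested, 0.364% were higher and 0.426% lower with both supplements on all 8 days. By the labels, days 1 to 4 were cohort 1 and purification pool 1. Days 5 to 8 were cohort 2 and, for these 16 libraries, pool 3. Cohort, days and pool therefore cannot be told apart. Total counts of the 16 libraries lay between 8.917 M and 27.05 M. The muscle genes Ckm and Acta1 were abundant in all 16, at 13590 to 18150 and 24520 to 32360 CPM (counts scaled to library size, with TMM factors), which are defining genes of the labelled tissue. Of 5 library measures, body weight change (unit not stated) was 1.95 ± 1.79 with both supplements and 3.38 ± 1.08 with neither (SD, n = 8 each), lower on 7 of 8 days, with an exact permutation p of 0.0789 (two-sided, adjusted p = 0.394 over the 5 measures). RNA integrity number, total count, the mitochondrially encoded share and the share of the 10 most abundant genes had exact permutation p-values of 0.351 to 0.855. A ribosomal-RNA-like gene, CT010467.1, stood at 1886 to 14650 CPM in 4 libraries (3 with both supplements and 1 with neither) and at up to 510.5 CPM in the other 12. The 4 were the mice of days 1, 6 and 7 with both supplements and the control of day 6. 1 control library, that of day 2, stood apart by its interferon-inducible genes, and the control of day 5 followed it, as described below with and without them.

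Few genes separated the groups. Of 14549 genes tested with edgeR, 1 passed an adjusted p of 0.05 (0.00687% called), the antisense gene Atcayos, which was higher with both supplements, and 0 passed as lower. At an unadjusted p below 0.05 there were 721 genes (4.96%), 315 higher (2.17%) and 406 lower (2.79%). DESeq2 called 6 genes (0.0412%): Atcayos and the predicted gene Gm11266 higher, and Nmrk2, Ifit3, Irf7 and Cxcl9 lower. The median log2 difference over all genes was -0.0048 and the median size of a difference was 0.072, with 48.2% of genes above 0.

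The only call lay at the locus of the muscle NR kinase. Atcayos (ENSMUSG00000085779, chromosome 10, 81194609 to 81209161 in mm10, plus strand) stood at 144, 127, 106.5, 130, 97.0, 128, 124 and 148.5 CPM on days 1 to 8 with both supplements. With neither it stood at 97.5, 99.4, 83.9, 94.7, 100.2, 84.6, 87.0 and 89.0 CPM on the same days. The mice with both supplements were higher on 7 of 8 days, and on those days each lay above all 8 controls, whereas the mouse of day 5 lay below its control. The means were 125.7 ± 17.3 and 92.0 ± 6.7 CPM (SD, n = 8 each), and Atcayos rose by a fitted log2 difference of 0.45 ± 0.07 (SE, edgeR adjusted p = 0.0018, DESeq2 adjusted p = 6.34e-05). The call was lost in fits of fewer libraries that kept its size: 0.44 in cohort 1 (adjusted p = 0.542), 0.46 in cohort 2 (adjusted p = 0.206), 0.44 in a fit of the 16 libraries with day (adjusted p = 0.272), and 0.40 without the 4 libraries rich in CT010467.1 (edgeR adjusted p = 0.272).

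Nmrk2 itself (ENSMUSG00000004939, chromosome 10, 81198170 to 81202051, minus strand) was lower with both supplements on every day. It stood at 21.9, 29.4, 71.9, 42.0, 52.6, 55.6, 25.5 and 21.1 CPM on days 1 to 8 with both supplements. With neither it stood at 78.4, 117.7, 149, 54.9, 119, 96.8, 138.5 and 78.8 CPM. Each mouse with both supplements was below the control of its day, and the groups overlap only through the control of day 4, which lay under the mice of days 3 and 6 with both. The fitted log2 difference was -1.41 ± 0.28 (SE), which edgeR did not call (adjusted p = 0.0575) and DESeq2 did (adjusted p = 0.00162). It was -1.32 in cohort 1 and -1.46 in cohort 2, and edgeR called it in a fit of the 32 sedentary libraries alone (adjusted p = 0.0438). It was also called by edgeR without the control of day 4 (-1.53, adjusted p = 0.0138), and without the mouse of day 5 (-1.50, adjusted p = 0.0345) or of day 6 (-1.54, adjusted p = 0.0237) with both supplements. These were the only 3 calls of Nmrk2 in 16 fits that each left out 1 library, where its edgeR adjusted p reached 0.253.

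Atcay, the third gene of the locus, encodes caytaxin and lies upstream of Nmrk2 on the same strand (81204508 to 81230785); it was added after its values were seen because Atcayos runs antisense to it too. Its lowest, median and highest levels were 14.2, 17.4 and 19.7 CPM with both supplements and 7.43, 12.4 and 14.7 CPM with neither. It was higher with both on 8 of 8 days, by a log2 difference of 0.55 ± 0.17 (SE, edgeR adjusted p = 0.569), and did not pass. In GENCODE M21, Atcayos shares 270 exonic bases with Nmrk2 (14.6% of the exonic bases of Nmrk2) and 432 with Atcay (10.8% of those of Atcay). The deposited span of Atcayos ends before that of GENCODE M21 (81210877), and only 56 of the bases shared with Atcay lie inside it (1.4% of the exonic bases of Atcay). The sources used here do not state whether the authors counted by strand, so reads of the 3 genes cannot be fully told apart where they overlap. Nmrk2 was lower and Atcay higher with both supplements on all 8 days, and Atcayos was higher on all but day 5; the part of shared reads in this was not tested.

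**Figure D1:**
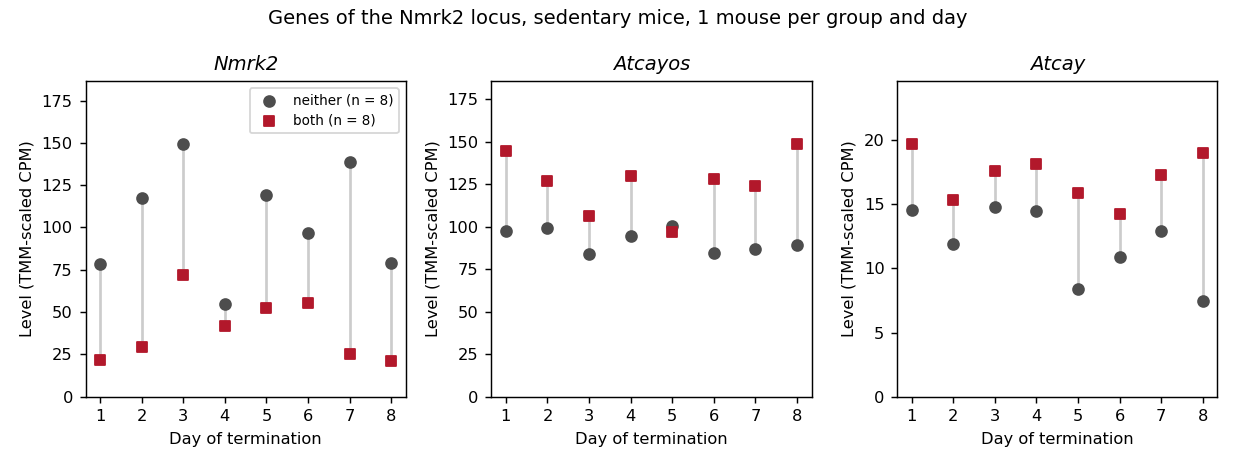
Levels (TMM-scaled CPM, linear axes from 0) of Nmrk2, Atcayos and Atcay by day of termination, with a grey line joining the mouse with both supplements (red squares) to the mouse with neither (grey circles) of the same day, n = 8 each. Nmrk2 is lower with both on 8 of 8 days, Atcayos higher on 7 and Atcay higher on 8.

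**Figure D2:**
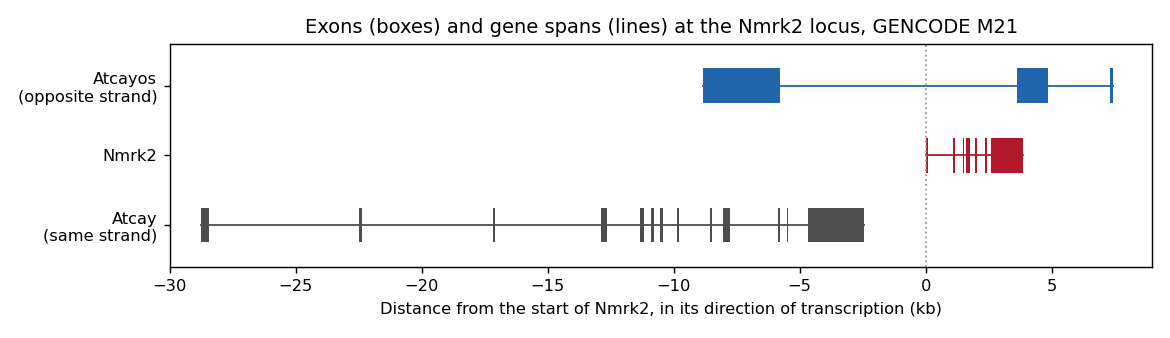
Exons (boxes) and gene spans (lines) of Atcayos, Nmrk2 and Atcay in GENCODE M21, drawn to scale by distance in kb from the start of Nmrk2 in its direction of transcription. Atcayos runs antisense through Nmrk2 and into the end of Atcay, sharing 270 exonic bases with the first and 432 with the second, of which 56 lie inside the deposited span of Atcayos.

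The other genes of NAD metabolism had small differences. Of 36 listed genes, which include Nmrk2, 33 were tested, 0 passed in edgeR, 15 lay above 0 and 18 below. The median log2 difference was -0.0050, beside -0.0048 for all genes. At an unadjusted p below 0.05, 1 was higher and 2, Nmrk2 among them, were lower. Parp9, an ADP-ribosyltransferase partner of Dtx3l that is itself interferon-inducible, had -0.31 ± 0.11 (SE, edgeR adjusted p = 0.716), or -0.16 without the control of day 2. Slc25a51, the mitochondrial NAD carrier, had 0.08 ± 0.04 (adjusted p = 0.953 in edgeR). Nampt stood at 146.3, 163.8 and 182.5 CPM (lowest, median, highest) with both and at 151, 173 and 202 CPM with neither, a log2 difference of -0.12 ± 0.06. Nmrk1 had -0.16, the NAD-degrading ectoenzyme Cd38 -0.23 (-0.14 without the control of day 6), the deacetylases Sirt1 and Sirt3 -0.15 and 0.01, and Nnmt, which methylates nicotinamide, 0.07. Nmrk2 was the single member of the list with a difference above 1 on the log2 scale.

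Of the 8 genes named for the smallest p-values among the lower ones, 7 are interferon-inducible: Ifit3, Irf7, Herc6, Sp100, Cxcl9, Dtx3l and Xaf1. Interferon-stimulated response elements (ISRE) are letters that STAT and IRF complexes bind in promoters of interferon-inducible genes. Of the 8 genes named, 1 (12.5%), Ifit3, held these letters in its promoter window, and its match is shown with those of Gbp2 and Oas1a, 2 further interferon-inducible genes described below, as examples of the letters. The sequences come from RefSeq on GRCm38.p6, on the strand of the gene, 5′ to 3′, and capitals mark matches, on either strand, to GAAA followed by NN and a second GAAA, with N any base.
Ifit3, chr19:34583348-34583441, plus strand: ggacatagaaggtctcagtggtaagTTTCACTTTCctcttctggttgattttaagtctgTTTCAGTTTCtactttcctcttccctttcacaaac
Gbp2, chr3:142620579-142620638, plus strand: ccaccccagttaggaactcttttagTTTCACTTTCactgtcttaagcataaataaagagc
Oas1a, chr5:120907526-120907570, minus strand: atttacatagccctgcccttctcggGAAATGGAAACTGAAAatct
Ifit3 holds 2 matches, the last ending 113 bases before the annotated start, Gbp2 holds 1 match ending 50 bases before it, and Oas1a holds 2 overlapping matches ending 5 bases before it. In windows of 250 bases before to 50 after the start, 17 of 28 interferon response genes in the promoter table held the ISRE letters (60.7%), beside 397 of 10679 tested genes (3.72%). Of 14 antigen presentation genes in the table, 2 held them (14.3%). The gamma-activated site TTCNNNGAA was in 7 of the 28 (25%), in 1 of the 14 (7.14%) and in 0 of the 8 named genes, beside 8.11% of tested genes, and the motifs overlapped in 24 promoters of the whole table. A match describes letters in a window and is not a measured binding site.

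All 39 tested genes of the interferon response list (40 listed) lay below 0 with both supplements. Their median log2 difference was -0.50, beside -0.0048 for all genes. None of the 39 passed in edgeR, DESeq2 called 2 (Ifit3 and Irf7), and 26 had an unadjusted p below 0.05 as lower, beside 2.79% of all genes. The list was chosen with earlier results of these data known. The summed level of the list was 195, 235.2 and 275 CPM (lowest, median, highest) with both supplements and 247, 266 and 751 CPM with neither.

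Among the antiviral effectors, Ifit3, a tetratricopeptide repeat protein that restricts viral RNA (chromosome 19, 34583531 to 34588731), stood at 1.83, 3.20 and 3.91 CPM (lowest, median, highest) with both supplements and at 3.54, 5.38 and 9.92 CPM with neither. It was lower with both on 8 of 8 days, and the groups overlap only through the control of day 1. The log2 difference was -0.91 ± 0.19 (SE, edgeR adjusted p = 0.0708, DESeq2 adjusted p = 0.00721). It was -0.88 in cohort 1 and -0.89 in cohort 2, and edgeR called it with the 32 sedentary libraries alone (adjusted p = 0.0438), without the control of day 1 (-1.002, adjusted p = 0.0216) and without that of day 3 (-0.99, adjusted p = 0.0361). Of 16 fits that each left out 1 library, only those 2 called Ifit3, and its edgeR adjusted p reached 0.378. Oas1a, a synthetase of the antiviral oligoadenylate pathway, had -1.22 ± 0.33 and was lower on 7 of 8 days (edgeR adjusted p = 0.335). Xaf1, an interferon-induced promoter of apoptosis, was lower on 8 of 8 days by -0.59 ± 0.15, and Isg15, a ubiquitin-like modifier, also on 8 of 8 by -0.86 ± 0.31. Oasl2 had -0.77, Ifit2 -0.76, Rsad2 -0.71 and Bst2 -0.60.

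Among the regulators, Irf7, a transcription factor that amplifies type I interferon, stood at 2.21, 2.7 and 4.23 CPM with both supplements and at 3.24, 4.49 and 11.7 CPM with neither. It was lower on 6 of 8 days, with a log2 difference of -0.89 ± 0.21 (SE, edgeR adjusted p = 0.176, DESeq2 adjusted p = 0.0498). Stat2 and Irf9, which pair in the complex that carries the type I interferon signal, had -0.54 and -0.36. Herc6, a ligase for Isg15, had -0.95 ± 0.22, the nuclear body gene Sp100 -0.43 ± 0.11 and Dtx3l, the ligase partner of Parp9, -0.33 ± 0.08. Of these, Herc6 was lower on 7 of 8 days and Sp100 and Dtx3l on 6, and none passed in edgeR (adjusted p = 0.176, 0.229 and 0.282). Dtx3l had -0.52 in cohort 1, -0.13 in cohort 2 and -0.21 without the control of day 2.

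The guanylate-binding proteins, immunity-related GTPases and chemokines, which respond mainly to interferon gamma, differed most through 2 control mice. Gbp2 stood at 10.5, 81.9, 8.08, 8.30, 20.8, 12.2, 6.91 and 9.21 CPM on days 1 to 8 with neither supplement, and at 5.34 to 9.11 CPM in the 8 mice with both. The control of day 2 was far above every other mouse of the 2 groups and the control of day 5 came next. Cxcl9, which recruits T cells, was 13.6 CPM in the control of day 2, 3.40 in that of day 5 and at most 2.07 in the other controls, beside 0.381 to 1.252 CPM with both supplements. Its log2 difference was -1.65 ± 0.40 (edgeR adjusted p = 0.229, DESeq2 adjusted p = 0.0437) and -0.66 without the controls of days 2 and 5. Ifnb1 had no counts in any of the 16 libraries and Ifng was at most 0.0515 CPM. Of 12 lymphocyte markers only 1 had enough counts to be tested, and their summed level was 2.97 to 5.19 CPM with both and 3.21 to 6.14 CPM with neither.

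The differences of the interferon response list were smaller without these 2 mice. Both controls were picked after the data were seen, for their high levels of interferon-inducible genes. Smaller differences without them were therefore fixed by that choice. Without the control of day 2 the median was -0.35, with 36 of 39 genes below 0 and 18 lower at an unadjusted p below 0.05. Without the controls of days 2 and 5 it was -0.30, with 37 below 0 and 11 lower, and Ifit3 had -0.71 and Irf7 -0.53 (edgeR adjusted p = 0.555 and 0.671). Without the same pair of controls Herc6 had -0.62, Xaf1 -0.37, Dtx3l -0.18 and Parp9 -0.16. Without the 4 libraries rich in CT010467.1 the median was -0.44. In cohort 1 it was -0.60 with 38 genes below 0, and in cohort 2 -0.46 with 36 below 0. The control of day 2 belongs to cohort 1 and that of day 5 to cohort 2. Each cohort fit, also those of Ifit3 and Dtx3l above, therefore still included a high control.

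The antigen presentation list showed a similar layout. All 19 tested genes lay below 0, with a median log2 difference of -0.36, 12 lower at an unadjusted p below 0.05 and 0 passing in either tool. Nlrc5, the activator of class I genes, had -0.99 ± 0.31, the peptide transporter gene Tap1 -0.87 ± 0.32, the immunoproteasome gene Psmb8 -0.57 ± 0.19 and H2-T23, a non-classical class I gene, -0.46 ± 0.16 (SE, edgeR adjusted p = 0.512 to 0.716). Without the control of day 2 Tap1 had -0.47, Psmb8 -0.36 and H2-T23 -0.24, and without the controls of days 2 and 5 Nlrc5 had -0.32, Tap1 -0.08, Psmb8 -0.18 and H2-T23 -0.09. The invariant subunit B2m, shared by class I molecules, stood at 92.9 ± 19.7 CPM with both and 119 ± 35.6 CPM with neither (SD, n = 8 each) and was lower on all 8 days. Without the control of day 2 the antigen presentation list had 5 lower at that level, and without the mouse of day 5 with both supplements it had 19. Without the controls of days 2 and 5 the antigen presentation median was -0.17, with 18 of 19 genes below 0 and 0 lower at an unadjusted p below 0.05. The count of 12 was thus not kept without those 2 libraries, which were picked for their high levels. That fit also held fewer controls.

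**Figure D3:**
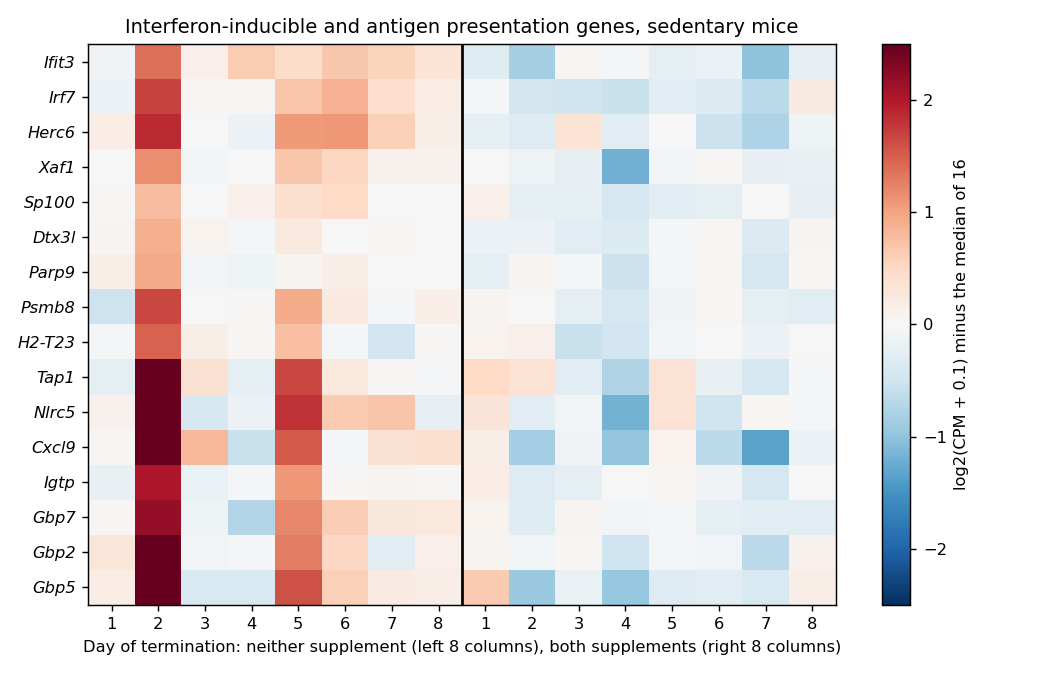
Levels of 16 interferon-inducible and antigen presentation genes in the 16 sedentary libraries, as log2(CPM + 0.1) minus the median of the 16, ordered by day within each group; the colour scale ends at 2.5 and values beyond it share its last colour. The controls of days 2 and 5 are the darkest columns, and Ifit3 is lower with both supplements on 8 of 8 days.

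Immune and vascular cell markers were also mostly below 0, by less. Of 19 tested macrophage and neutrophil markers 17 lay below 0, with a median log2 difference of -0.15 and 0 at an unadjusted p below 0.05. Their summed level overlapped widely, at 162 to 380.8 CPM with both supplements and 163.5 to 353.9 CPM with neither. The macrophages and neutrophils median was -0.34 in cohort 1 and 0.03 in cohort 2, and 0.03 without the 4 libraries rich in CT010467.1. Of 18 endothelial markers 17 lay below 0 with a median of -0.09, and Erg, an endothelial transcription factor, had -0.28 ± 0.11 (SE, edgeR adjusted p = 0.745). The part of these cell types in the interferon genes was not tested.

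Of 28 tested genes of the regeneration and denervation list, 20 lay above 0 and 8 below, with a median log2 difference of 0.11 and 0 passing in edgeR. Mymk, Chrng and Myh3, all at low levels, had differences above 1 on the log2 scale. Medians of Mymk in sedentary mice were 0.217 CPM with NR alone and 0.166 CPM with PT alone, and those of Chrng 0.179 and 0.177 CPM. At such levels Mymk and Chrng can pass the filter on low counts mainly through the group with both supplements, where they are high. Their place among the tested genes is therefore not independent of that rise. Mymk encodes myomaker, the membrane protein that fuses myoblasts into fibres. It stood at 1.40, 0.82, 1.27, 0.944, 0.939, 0.888, 0.686 and 0.496 CPM on days 1 to 8 with both supplements and at 0.226, 0.0743, 0.647, 0.303, 0.155, 0, 0.227 and 0.271 CPM with neither. It was higher on 8 of 8 days, and only the mouse of day 8 lay below the highest control. The log2 difference was 1.96 ± 0.54 (SE, edgeR adjusted p = 0.356, DESeq2 adjusted p = 0.405).

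Chrng, the fetal gamma subunit of the acetylcholine receptor, stood at 0.442, 0.806 and 1.252 CPM (lowest, median, highest) with both and at 0, 0.274 and 0.602 CPM with neither. It too was higher on 8 of 8 days, with a log2 difference of 1.41 ± 0.44 (edgeR adjusted p = 0.512). Myh3, embryonic myosin heavy chain, stood at 0.962, 2.69 and 4.65 CPM with both and 0.227, 0.960 and 1.70 CPM with neither, higher on 8 of 8 days by 1.30 ± 0.46. Sln, sarcolipin, an inhibitor of the calcium pump, had 0.88 ± 0.41 and Myh8, perinatal myosin, 0.33 ± 0.15, on 7 and 6 of 8 days. Cdkn1a, the cell cycle inhibitor p21, had 0.58 ± 0.23, made up of 0.09 in cohort 1 and 1.13 in cohort 2. Without the 4 libraries rich in CT010467.1 Sln had 0.48 and Cdkn1a 0.30.

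The regeneration and denervation list did not follow as a whole. Of its 29 genes 28 were tested, and 7 were higher at an unadjusted p below 0.05, beside 2.17% of all genes (4 without the mouse of day 7 with both supplements, and 3 without the 4 libraries rich in CT010467.1). The 1 lower at that level was Myod1, the myogenic factor, at -0.26. The 7 higher include Mymk and Chrng, which the filter can have kept through the group where they are high. Myog, which drives fusion and rises after denervation, had 0.26, the adult receptor subunit Chrne 0.06, the denervation markers Ncam1 and Runx1 -0.07 and 0.04, and Pax7 of satellite cells 0.08. The 8 satellite cell markers split 4 above and 4 below 0. Mymk had 1.89 and 2.13, Chrng 1.48 and 1.32, and Myh3 1.21 and 1.38 in cohorts 1 and 2.

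Fibre type genes varied more between mice than between groups. Myh7, slow myosin, stood at 0.182, 1.53 and 4.46 CPM with both and 0, 0.472 and 1.44 CPM with neither, a log2 difference of 1.21 ± 0.97 (SE, edgeR adjusted p = 0.999). Myl3, a slow light chain, was 29.3 and 17.7 CPM in the mice of days 1 and 8 with both supplements and at most 2.29 CPM in the other 14. Pln, phospholamban, a pump inhibitor of slow fibres, was higher on 8 of 8 days by 1.02 ± 0.38 (edgeR adjusted p = 0.729), at levels under 1 CPM. The slow fibre genes had a median of 0.30, which was -0.23 in cohort 1 and 0.92 in cohort 2. Their summed level was highest in a control, that of day 1, at 577.1 CPM. The lowest, median and highest sums were 94.67, 130.9 and 234.7 CPM with both supplements and 113.5, 131.4 and 577.1 CPM with neither. The fast myosins Myh4, Myh1 and Myh2 had 0.03, 0.10 and -0.30, each smaller than its standard error.

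Of the 76 nuclear OXPHOS genes, the subunits of the respiratory chain and ATP synthase, 74 lay above 0 by a median log2 difference of 0.10, with 0 passing in edgeR and 1 at an unadjusted p below 0.05. The median was 0.01 in cohort 1, with 39 of 76 above 0, and 0.19 in cohort 2, with 76 above 0 and 29 at an unadjusted p below 0.05 in that cohort. It was 0.03 without the 4 libraries rich in CT010467.1. These include the mice of days 6 and 7 with both supplements and the control of day 6, all of cohort 2. The fit without them is therefore not a separate check from the split by cohort. Ndufa3, a complex I subunit, stood at 91.4, 110.1 and 134.3 CPM with both and 77.3, 96.7 and 119.3 CPM with neither, a difference of 0.20 ± 0.10 (SE, edgeR adjusted p = 0.994). The mitochondrially encoded genes lay the other way, 7 of 8 below 0 with a median of -0.07. Ppargc1a, which encodes the coactivator PGC-1alpha, had -0.05 ± 0.09.

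Metabolic and stress lists centred on 0. Fatty acid oxidation, TCA cycle and pyruvate oxidation, glycolysis and glycogen, insulin signalling and glucose uptake, lipogenesis and cholesterol synthesis had medians of 0.01, 0.02, 0.00, 0.00, 0.00 and 0.01, with 0 genes passing in edgeR. The insulin-responsive glucose transporter gene Slc2a4 had 0.09 ± 0.05, Hk2, hexokinase 2, -0.12 ± 0.10, and Pdk4, a brake on pyruvate oxidation, -0.10 ± 0.41. In the antioxidant and xenobiotic response list, Cyp1a1, the classic target of the aryl hydrocarbon receptor, stood at 0.518, 1.19 and 1.78 CPM with both and 0.340, 0.782 and 0.966 CPM with neither, a difference of 0.76 ± 0.26 (SE, edgeR adjusted p = 0.621). It was higher on 6 of 8 days, while Nqo1, a target of NRF2 and the same receptor, had -0.07 ± 0.08. Cat, catalase, and Srxn1, sulfiredoxin, had -0.21 and -0.22. Fkbp5, a glucocorticoid-induced gene in the atrophy list, had 0.55 ± 0.23 and was higher on 7 of 8 days (edgeR adjusted p = 0.858), while that list had a median of 0.03. Heat shock and ER chaperones, the circadian clock, p53 targets and extracellular matrix had medians of -0.01, -0.01, -0.05 and -0.06, and iron and haem handling and the mitochondrial stress response had 0.00 each.

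**Figure D4:**
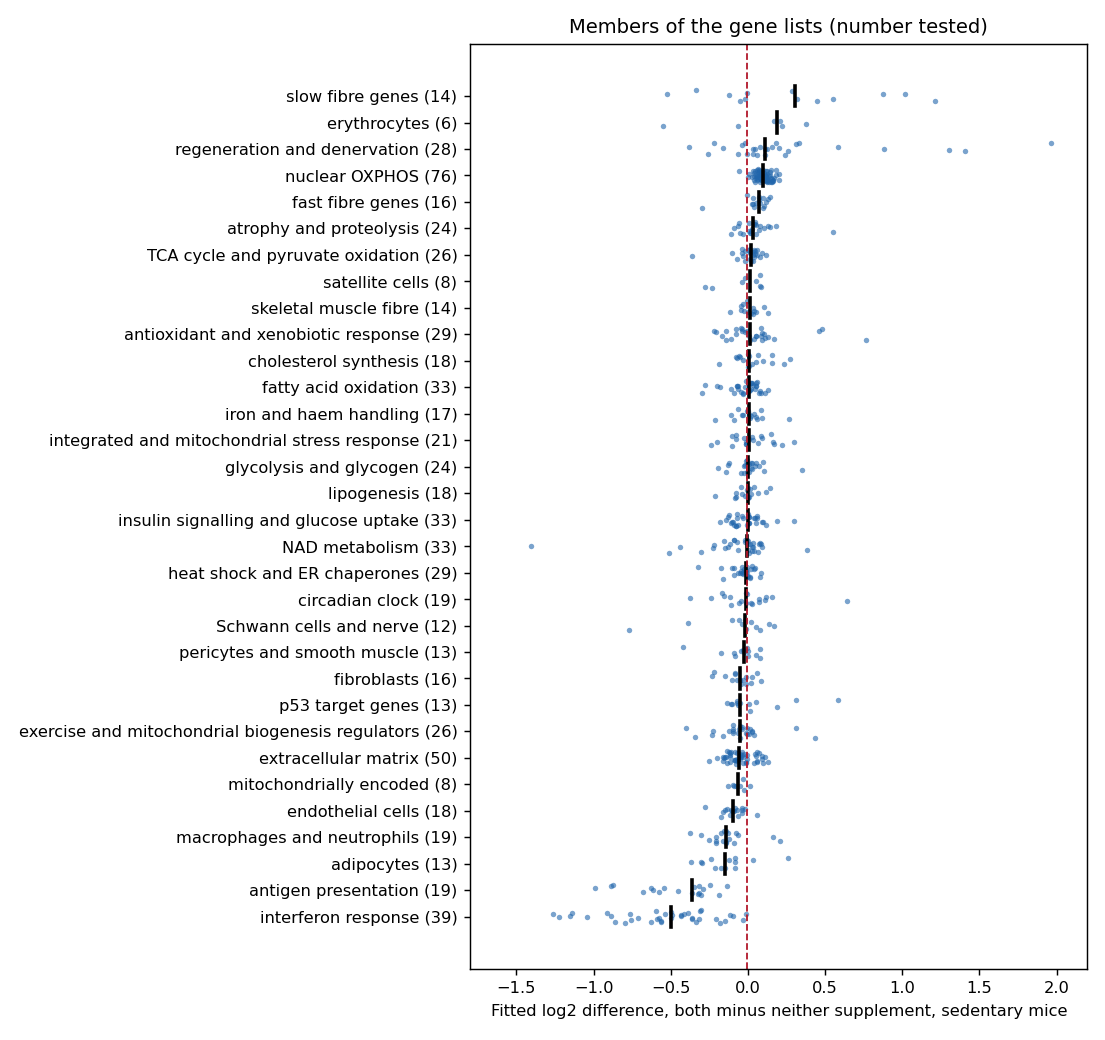
Fitted log2 differences (both minus neither supplement) of the members of 32 gene and cell type lists with at least 6 tested members, each point 1 gene, the black bar the list's median and the dashed line the median of all genes; vertical scatter has no meaning and 1 point (Myl3, 3.55) lies beyond the axis. The interferon response list (median -0.50) and the antigen presentation list (-0.36) lie lowest, and most other medians are near 0.

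Outside the lists, the genes with the smallest p-values among the higher ones of at least 1 CPM, predicted genes left out, had small differences. After Atcayos, these were Nt5c3, a pyrimidine nucleotidase, at 0.25 ± 0.06, Wdr70 at 0.19 ± 0.05, Lsm6, a subunit of an RNA-binding ring in splicing and decay, at 0.21 ± 0.05, and Yeats4, a chromatin reader, at 0.31 ± 0.09 (SE). Mettl21e, a muscle lysine methyltransferase, had 0.72 ± 0.20, Fzd9, a Wnt receptor, 0.27 ± 0.08, and the zinc finger gene Zfp747 0.47 ± 0.14. None of these 7 passed in edgeR (adjusted p = 0.279 to 0.413) or DESeq2. Yeats4 was higher on 8 of 8 days and the other 6 on 7. Gm11266, a predicted gene of chromosome 4 that DESeq2 called (adjusted p = 0.0426), was 9.89, 13.7 and 15.9 CPM with both and 8.36, 9.33 and 10.8 CPM with neither, higher on 8 of 8 days by 0.48 ± 0.11 (edgeR adjusted p = 0.112, or 0.56 and adjusted p = 0.023 without the mouse of day 5 with both supplements). That was its only call in 16 fits that each left out 1 library, where its edgeR adjusted p reached 0.565.

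Complete separation of the groups was rare. All 8 mice with both supplements lay above all 8 controls for 2 genes (0.0137%), Scin, an actin-severing protein, and Vmac, and below them for 3 (0.0206%), among them Bin2 and I830077J02Rik. These 4 are named for the separation, after their values were seen. Scin stood at 9.10 ± 0.99 against 7.19 ± 0.70 CPM, and Bin2, a membrane-bending protein of blood cells, at 0.239 ± 0.056 against 0.634 ± 0.194 CPM (SD, n = 8 each). In edgeR the adjusted p of Bin2 was 0.112 and those of the other 3 named were 0.695 to 0.932. On all 8 days 53 genes were higher (0.364%) and 62 lower (0.426%). These shares are close to those that even odds on each of 8 independent days would give. A difference on 8 of 8 days therefore does not by itself set a gene apart.

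The responses to NR alone and PT alone share the control libraries with the response to both, so their log2 differences are given side by side. Nmrk2 had -1.41 with both, -1.44 with NR alone and -0.23 with PT alone, and Atcayos 0.45, 0.35 and 0.14. The direct difference of both minus NR alone was 0.03 for Nmrk2 (95% interval -0.54 to 0.60) and 0.09 for Atcayos (-0.05 to 0.24). The interferon response list had medians of -0.50, -0.46 and -0.31 against the same controls, and Ifit3 had -0.91, -0.69 and -0.55. Mymk had 1.96, 0.60 and -0.66, Chrng 1.41, 0.24 and -1.02, and Sln 0.88, -0.04 and -0.67.

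Whether both supplements differ from the sum of each alone was tested as an interaction in sedentary mice. Of 14549 genes 0 were called in edgeR (0% called) and 0 in DESeq2, with 293 at an unadjusted p below 0.05 (2.01%), 151 higher (1.04%) and 142 lower (0.976%). The smallest p-values were those of D830024N08Rik (0.89 ± 0.23), Sspo, which encodes SCO-spondin (1.59 ± 0.44), and Sgsm1 (1.44 ± 0.41), each with an edgeR adjusted p of 1. For Mymk, Chrng and Sln the interaction was 2.02 ± 0.89, 2.19 ± 0.71 and 1.59 ± 0.60 (SE), with unadjusted edgeR p-values of 0.0272, 0.00319 and 0.0103 and adjusted p = 1 for each. These 3 were picked from the regeneration and denervation list and do not stand for it. Mymk and Chrng can also have passed the filter on low counts through the group with both supplements, which enters the interaction. Myh3 had means of 1.05 CPM with neither, 1.43 with NR alone, 1.38 with PT alone and 2.66 with both. In the same order Myh8 had 3.94, 4.705, 3.88 and 5.01 CPM, and Cdkn1a 14.9, 16.9, 14.5 and 22.65 CPM.

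The response of sedentary mice was then set against that of runners, which rests on other libraries. No gene was called for the difference of the responses in edgeR (0% of 14549) or DESeq2, and 450 had an unadjusted p below 0.05 (3.09%), 190 higher (1.31%) and 260 lower (1.79%). Aldoc, a brain-type aldolase at under 1 CPM, had -1.41 in sedentary mice and 0.90 in runners, Grb10, an adaptor that restrains insulin signalling, 0.19 and -0.26, and Gm11266 0.48 and -0.08, the 3 smallest p-values (edgeR adjusted p = 1). Atcayos had 0.11 ± 0.08 in runners, and its sedentary minus running difference was 0.33 ± 0.11 (edgeR unadjusted p = 0.00258, adjusted p = 1). Nmrk2 had -0.65 ± 0.29 in runners and was lower with both on 6 of 7 days there, with a difference of the responses of -0.75 ± 0.40 (edgeR unadjusted p = 0.0653). Ifit3 had -0.04 ± 0.19 in runners, at 5.05 ± 1.46 CPM with both and 5.21 ± 1.52 CPM with neither (SD), and a difference of -0.87 ± 0.27 (edgeR unadjusted p = 0.00227, adjusted p = 1). The interferon response list had a median of -0.12 in runners, beside -0.50 in sedentary mice. The sedentary value includes the high controls of days 2 and 5, and was smaller in size without them, as given above.

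**Figure D5:**
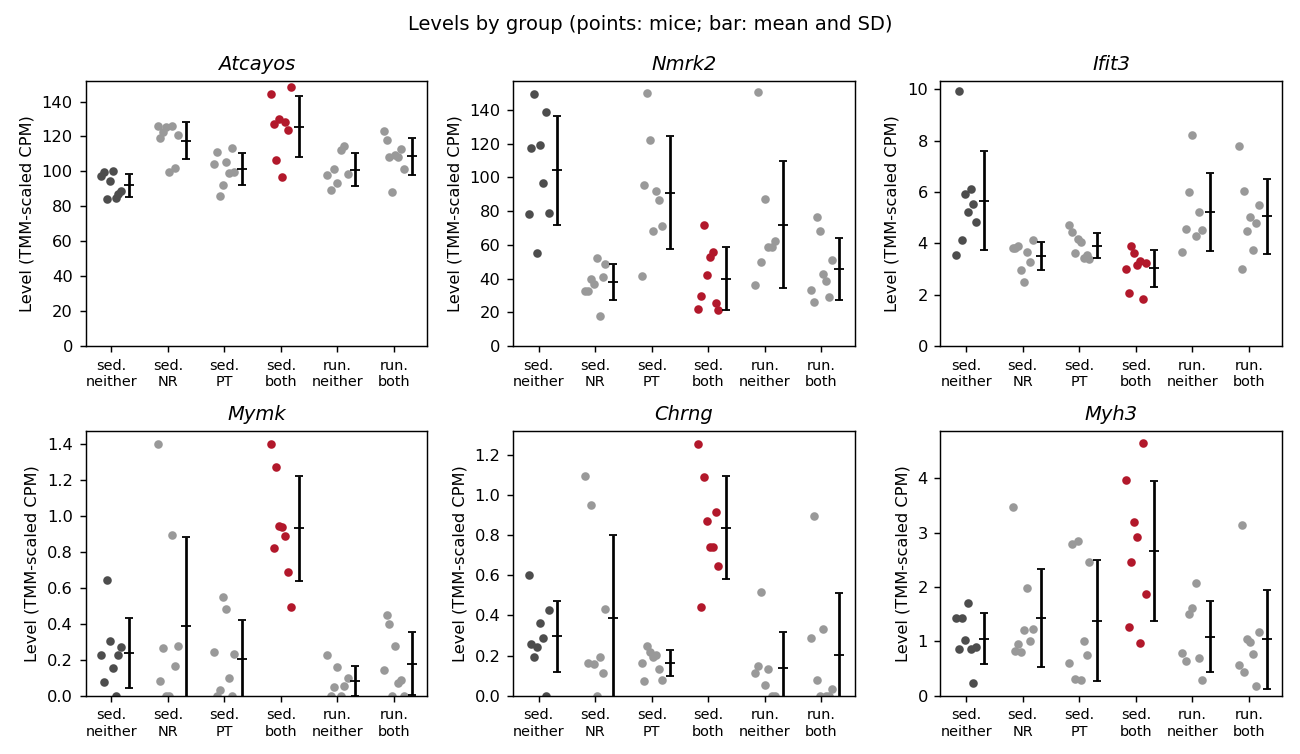
Levels (TMM-scaled CPM, linear axes from 0) of 6 genes in 4 sedentary (sed.) and 2 running (run.) groups, each point 1 mouse, with the mean and SD beside the points and SD bars cut at 0; groups hold 8 mice except runners with neither supplement, which hold 7. Nmrk2 is low in both sedentary groups with NR, and the 8 mice with both supplements and no wheel have Mymk levels of 0.496 to 1.40 CPM, against 0 to 0.647 CPM in those with neither.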

How the data were processed

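The authors deposited 1 table of raw read counts, whole numbers per gene without normalization. Reads were aligned with STAR 2.7.3a and counted with featureCounts 2.0.0 on mm10, per the submitters' processing notes; per the labels' protocols, libraries were stranded poly-A libraries. Neither the strand setting nor the annotation release is stated in the sources used here. Of 55487 gene identifiers 55394 (99.8%) were matched to symbols through GENCODE M21, and coordinates are those deposited.

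Genes were tested with the edgeR 4.0.16 quasi-likelihood F test in R 4.3.3, over all 62 libraries (8 groups, 8 days and the time of termination as terms, 46 residual degrees of freedom), after filterByExpr (minimum count 10, minimum total 15) left 14549 genes. Scaling was by TMM, all tests had 2 sides, Benjamini-Hochberg adjustment in edgeR ran over every gene tested, and a call needed an adjusted p below 0.05. DESeq2 kept its default filtering, which can leave genes out of the adjustment. Its adjusted p-values therefore need not cover the same genes as those of edgeR. DESeq2 1.42.0 was the alternative tool, and the method was tested on simulated data. The simulation held no effect of day or time and no single outlying mouse, and changed only genes of at least 1 CPM. It therefore does not show how the method performs for genes below that level or with such mice. The members, the 23 gene lists and the 10 cell type lists were chosen with earlier results of these data known. Named genes were the called genes of at least 1 CPM, filled to 8 per direction by smallest p without predicted genes, 3 per interaction, up to 4 per list, and 27 further genes. Some genes withheld for evaluation are not reported here. Within-day pairing rests on the labels: deviations of mice of a day correlated at -0.236 to 0.0823. Between replicates chi-square per gene was 4.21 or more, above sampling noise, so no library was treated as a repeat. The reads carry no molecular identifiers, so counts overstate the number of independent molecules.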

Additional observations from a re-analysis of the deposited data

Results flagged for a closer look

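Of 168 sets of 8 values checked, 28 held 1 mouse far from the other 7 of its group. Chance gives about 1 in 20 only for normally distributed values in sets picked without regard to those values. The genes were chosen with results of these data known, so the count of 28 cannot be set against that rate. Gbp2, Gbp5, Gbp7 and Igtp were checked beyond the named genes, and all were flagged for the control of day 2. The control of day 2 was the high one for 12 interferon-inducible and antigen presentation genes, in CPM: Gbp2 81.9, Gbp5 55.4, Gbp7 59.1, Igtp 58.0, Tap1 30.8, H2-T23 30.0, Dtx3l 25.7, Parp9 18.5, Cxcl9 13.6, Irf7 11.7, Ifit3 9.92 and Herc6 6.69. These genes are not independent of one another. Among the other controls, Cd68 (13.9 CPM) and Srxn1 (53.3 CPM) were high on day 1, Mymk (0.647 CPM) and Sirt3 (18.4 CPM) on day 3, Wdr70 (24.65 CPM) on day 4, Cd38 (13.2 CPM) on day 6 and Slc25a51 (99.0 CPM) on day 7. Low ones were Folr2 (1.08 CPM) on day 5 and Yeats4 (6.16 CPM) on day 6.

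Among mice with both supplements, Aldoc (0.442 CPM) and Oas1a (1.105 CPM) were high on day 1 and Sspo (1.37 CPM) on day 7. Xaf1 (1.60 CPM) was low on day 4 and Ppargc1a (21.7 CPM) on day 2. The mouse of day 2 also had the highest share of counts in the 10 most abundant genes (26.95%), and that of day 8 the highest mitochondrially encoded share (12.46%).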

How the results depend on the processing

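The main comparison called 1 gene. It called 2 genes with no day or time term and 2 with the session as a block, 3 with the 32 sedentary libraries alone, 6 with DESeq2, and 0 in cohort 1, in cohort 2, with the 16 libraries and day, and without the 4 libraries rich in CT010467.1, which was chosen after seeing the data. Leaving out 1 library at a time gave 1 to 3 calls, and Atcayos was called in all 16 of these fits (log2 0.40 to 0.50). RLE scaling, both other filters, the RNA integrity number as a covariate and the 16 libraries without day gave 1. So did the fit without the controls of days 2 and 5, which was also chosen after seeing the data. The replicate block (the number in the title) also gave 1; its same-numbered mice had correlations of -0.141 to 0.111, so the numbers do not pair the mice. Both tests of a difference of responses gave 0 calls under every alternative run.

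Some small differences changed sign. In cohort 1 these were Cox7a2 (-0.0037), Casq2 (-0.19), Nnmt (-0.0099), Sirt3 (-0.17), Pdk4 (0.016) and Myh1 (-0.14), and in cohort 2 Sgsm1 (0.22), Ptprc (0.16), Ppargc1a (0.10), Myh2 (0.48) and Myh4 (-0.12). Pdk4 was 0.027 with the session block, 0.050 with the replicate block, 0.13 with the 16 libraries and day, and 0.028 with the 32 sedentary libraries. Nnmt was -0.018 with the RNA integrity number and -0.34 without the controls of days 2 and 5, where Sirt3 was -0.014. Without the libraries rich in CT010467.1, Mul1 was -0.010, Ptprc 0.029, Fcer1g 0.026, Sirt3 -0.045 and Myh1 -0.082. Leaving out single libraries, ranges crossed 0 for Myh1 (-0.017 to 0.19), Myh4 (-0.012 to 0.055), Nnmt (-0.11 to 0.23), Pdk4 (-0.28 to 0.34), Ppargc1a (-0.10 to 0.012) and Sirt3 (-0.027 to 0.075). The cause was not tested.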

Other observations

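Genes of the epidermis stood out in 1 control, chosen after its values were seen. Krt5, a keratin of basal keratinocytes, was 9.33 CPM in the control of day 5 and at most 1.68 CPM in the other 7 controls, and Calml3, a calmodulin-like gene of epithelia, was 7.42 CPM there and at most 1.81 CPM in the others. Asprv1, a protease of the epidermis, was 3.09 CPM there and at most 1.36 CPM in the others. In the 8 mice with both supplements these genes reached 0.145, 0.296 and 0.436 CPM. The same control was the second highest for Gbp2 (20.8 CPM).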
